A study of Mus musculus with 20 samples.

Results

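The GSK343 by antibody interaction measures, gene by gene, how far the response of a mouse liver tumor to GSK343 differed between tumors given an antibody against CXCL10 and tumors given a control antibody. It was taken as the GSK343 change under anti-CXCL10 minus the GSK343 change under control antibody, on the log2(FPKM + 1) scale, where FPKM counts fragments relative to transcript length and to the library's mapped total. It uses all 19 libraries with values, of 20 labelled samples, and was tested for 14385 of 14633 genes, those with at least 1 FPKM in at least 5 libraries. The tumors fell into 4 groups. Tumors given the anti-CXCL10 antibody (spelled Ant-CXCL10 in the labels) together with GSK343 gave 5 libraries, tumors given anti-CXCL10 alone gave 5, tumors given control antibody together with GSK343 gave 5, and tumors given control antibody alone gave 4, with replicate 4 of that last group not analysed here. All groups shared the host and the tumor: cells of HEPA1-6, a mouse hepatoma line, injected under the skin of C57/BL6 mice and left to grow for 4 weeks. Every tumor therefore carried the immune system of an intact mouse, and the sources used here do not give the host's age and sex, the doses or the antibody clone. The labels do not say that each library came from a separate animal, so the p-values speak only of the spread among these libraries, which may be technical.

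GSK343 blocks EZH2, the subunit of Polycomb repressive complex 2 that methylates histone H3 on lysine 27 and so keeps developmental and some inflammatory genes silent. CXCL10 is a chemokine that interferon-gamma induces, and it draws T cells and natural killer cells that bear the receptor CXCR3. The genes for CXCL9 and CXCL10 are known targets of EZH2-dependent silencing in several tumor types, which links the drug to the antibody's target. This 2 by 2 layout compares the GSK343 change in RNA between the antibodies and does not measure that silencing. In such a layout a shift that is common to both groups of an antibody arm drops out of the interaction.

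The interaction was negative at an adjusted p under 0.05 for 9 genes (0.0626% of the genes tested) and positive for 0 (0%). These were Ly9, Cd48, Themis2, Dock2, Ccl6, Alox5ap, Trpv2, AB124611 and AI662270, and for each of them the 5 control antibody plus GSK343 libraries lay above all 14 others, as they did in 253 of all genes tested (1.76%). The 9 were chosen on the interaction in these same libraries, which favors such an order, so the share over all genes is no test of it. Among the 9, Ly9, Cd48, Themis2, Dock2, Ccl6 and Alox5ap are known as genes of leukocytes. For these 9 genes the log2 change with GSK343 was between -0.35 and 0.14 under anti-CXCL10, and between 0.85 and 1.68 under control antibody. The test was limma's moderated test of the interaction term, with Benjamini-Hochberg adjustment over all genes tested. At an unadjusted p under 0.05 the interaction was negative for 1127 genes (7.83%) and positive for 735 (5.11%), so that 60.5% of these were negative, and after median-ratio scaling of the libraries the counts were 1270 and 502, of which 71.7% were negative. With library quality weights in limma, 340 genes were negative and 59 positive at an adjusted p under 0.05. Leaving out 1 library at a time gave between 0 and 476 genes, with 476 without control antibody plus GSK343 replicate 1, 57 without anti-CXCL10 replicate 5 and 47 without control antibody replicate 3. The count was 0 without anti-CXCL10 plus GSK343 replicate 1 or 5, anti-CXCL10 replicate 3, control antibody plus GSK343 replicate 2 or control antibody replicate 5. In all 19 of these fits the interaction of each of the 9 genes was negative, and it passed the threshold in between 4 of them (Dock2 and AB124611) and 13 (AI662270).

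The libraries were alike in their sums of FPKM, between 533606 and 629679, and the correlation of log values between libraries of a group was between 0.9405 and 0.9766. The tumors carried the transcripts of their line of origin in every library: Alb, which encodes albumin, had 1820 FPKM in the lowest library and 4400 in the highest, and Afp, which encodes alpha-fetoprotein, had 1430 in the lowest and 3500 in the highest. Skeletal muscle transcripts, which a subcutaneous tumor can pick up from the body wall, were spread unevenly. The mean log2(FPKM + 1) of 19 muscle markers was 1.22, 1.56, 2.76, 2.77 and 1.498 in the anti-CXCL10 plus GSK343 libraries, 2.61, 0.8293, 3.55, 3.95 and 1.08 in the anti-CXCL10 libraries, 2.097, 2.58, 4.66, 6.49 and 4.55 in the control antibody plus GSK343 libraries, and 1.88, 1.93, 1.42 and 2.65 in the control antibody libraries. Replicates 3, 4 and 5 of control antibody plus GSK343 were the 3 highest of all 19, and its replicates 1 and 2 lay within the range of the control antibody libraries. Of 22 muscle markers 20 were in the table, Ryr1 and Ttn being those that were not, and their summed FPKM was between 94.4 and 216 under anti-CXCL10 plus GSK343, 59.7 and 444 under anti-CXCL10, 130 and 2940 under control antibody plus GSK343, and 94.0 and 200 under control antibody. Myh2, Pvalb and Actn3 were at 0 in at least 1 anti-CXCL10 plus GSK343 library, Myh4, Tnnc2, Ckm, Pvalb and Actn3 in at least 1 anti-CXCL10 library, and Pvalb in at least 1 control antibody library. In these bulk samples fewer cells of a type and less RNA per cell cannot be told apart.

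The 3 libraries highest in muscle markers are all of control antibody plus GSK343, so a fit without them keeps only replicates 1 and 2 of that group. Its counts, here and below, cannot tell the loss of libraries from muscle content. Without these 3 libraries, the 9 genes had interactions between -1.85 and -0.84, against -1.92 to -0.96 in the main fit. Their adjusted p was between 0.131 and 0.256, and 1 gene of the whole table, none of these 9, passed the threshold. With the muscle score as a covariate the 9 interactions were between -1.59 and -0.90, with adjusted p between 0.372 and 0.475, and 0 genes passed, against 649 genes negative and 434 positive at an unadjusted p under 0.05. Over all genes, 7.83% were negative and 5.11% positive at an unadjusted p under 0.05 in the main fit. These shares were 4.51% and 3.02% with the muscle covariate, and 5.15% and 5.04% without the 3 libraries. Without control antibody plus GSK343 replicate 1 alone they were 10.3% and 6.62%. They are the background for the list counts given below for these fits. The part of muscle content in the 9 interactions was not tested beyond these fits.

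**Figure D1:**
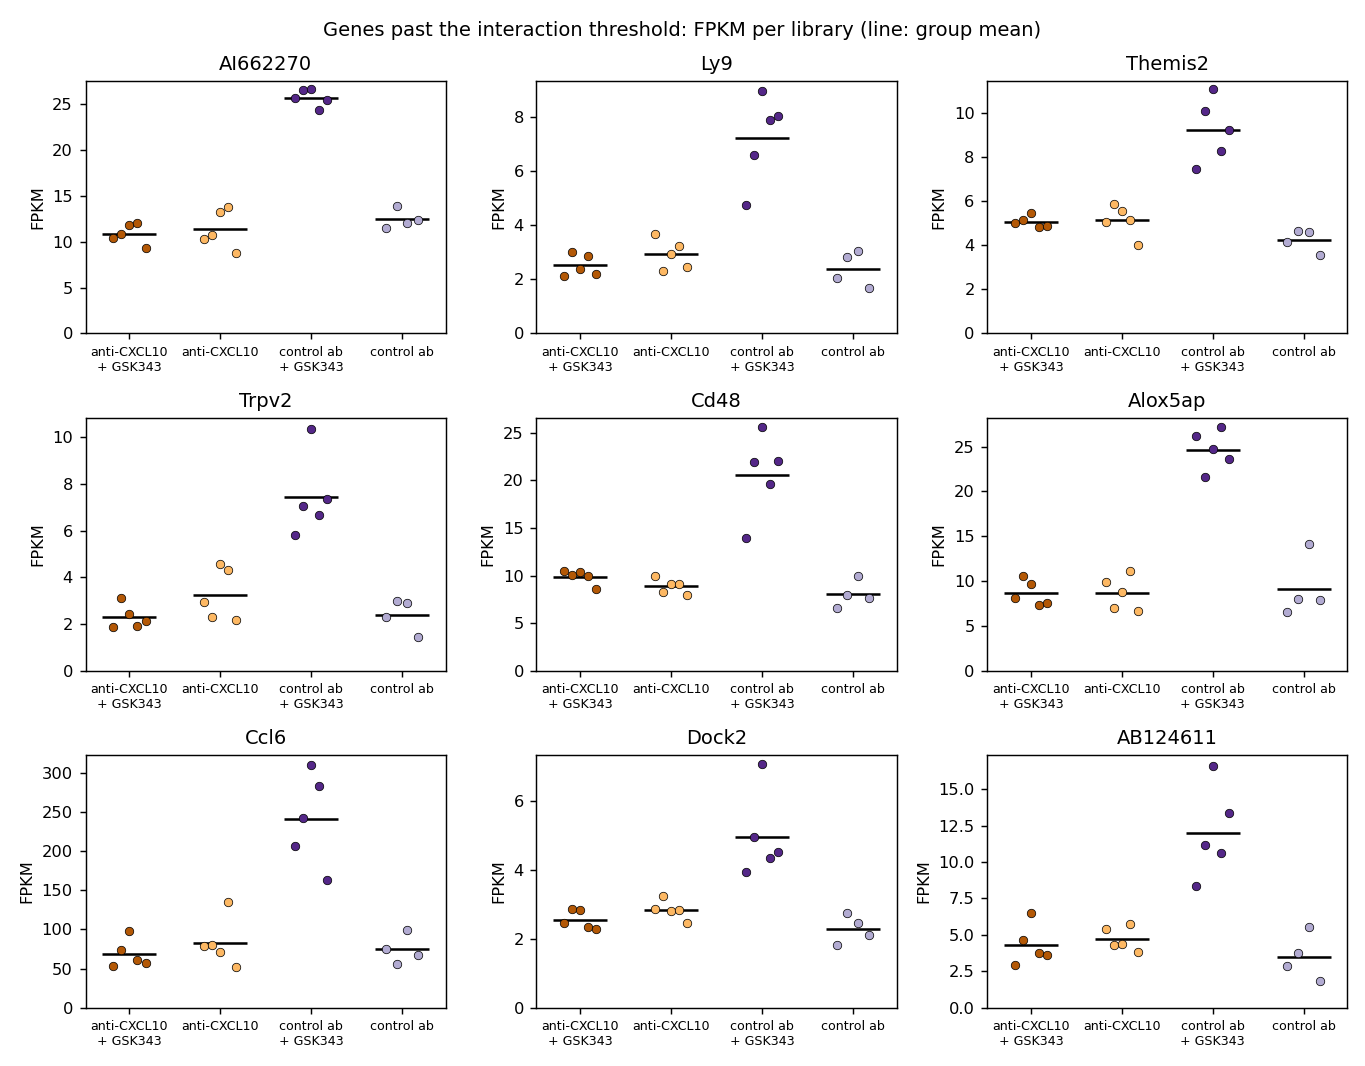
FPKM of the 9 genes past the threshold (vertical axes, linear, from 0) in each library, with anti-CXCL10 plus GSK343, anti-CXCL10, control antibody plus GSK343 and control antibody from left to right. Points are libraries and the line is the group mean; in every panel the 5 control antibody plus GSK343 points lie above all 14 others.

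Of the 9 genes, 2 encode receptors of the SLAM family, cell surface proteins by which leukocytes bind each other. Ly9, which encodes the lymphocyte receptor CD229, lies on chr1:171588624-171607410 on the minus strand of GRCm38, the build the submitters' processing notes name. Ly9 had 2.12, 3.03, 2.39, 2.87 and 2.21 FPKM under anti-CXCL10 plus GSK343, 3.68, 2.30, 2.96, 3.25 and 2.47 under anti-CXCL10, 4.76, 6.59, 8.98, 7.89 and 8.06 under control antibody plus GSK343, and 2.05, 2.81, 3.06 and 1.67 under control antibody. Each of the control antibody plus GSK343 libraries was above all others, while the ranges of the other 3 groups overlapped. Its interaction was -1.43 (95% interval -1.90 to -0.96, adjusted p = 0.0252), made of a change of -0.15 under anti-CXCL10 and of 1.28 under control antibody. The gene overlaps Cd244, whose interaction was 0.07.

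Cd48 encodes CD48, the ligand of the receptors CD2 and CD244, and lies on chr1:171682009-171705258, plus strand. Cd48 had 10.4, 10.1, 10.4, 9.96 and 8.53 FPKM under anti-CXCL10 plus GSK343, 9.90, 8.31, 9.10, 9.07 and 7.91 under anti-CXCL10, 13.9, 21.95, 25.6, 19.6 and 22.01 under control antibody plus GSK343, and 6.58, 7.91, 9.99 and 7.59 under control antibody. The control antibody plus GSK343 libraries were the 5 highest, with replicate 1 nearest to the rest. The interaction of Cd48 was -1.10 (95% interval -1.50 to -0.71, adjusted p = 0.0404), with changes of 0.14 under anti-CXCL10 and 1.25 under control antibody.

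Genes beside these in the genome were then looked up, a choice made after the values were seen. Within 200 kb of Ly9 or Cd48, the SLAM receptor gene Slamf7 had an interaction of -2.08 (adjusted p = 0.0799) and Cd84 one of -0.995 (adjusted p = 0.115), neither past 0.05. Slamf7 overlaps the antisense model RP23-116M12.7, which had -1.58, and as the sources used here give no strand setting for the counting, their fragments may not be separable. Of the 10 SLAM family genes tested, 8 had a negative interaction at an unadjusted p under 0.05 and 0 a positive one, with 2 past the adjusted threshold and a median of -1.02, against 7.83% negative and a median of 0.04 over all genes. The 2 are Ly9 and Cd48 themselves. This list, like those below, was chosen with earlier results of these data known, so its counts are a description. The list's mean log2(FPKM + 1) was between 2.48 and 3.28 under control antibody plus GSK343 and at most 2.35 in the other 14 libraries. It held 7 negative genes with the muscle covariate, 8 without the 3 muscle-high libraries and 7 without control antibody plus GSK343 replicate 1.

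Themis2 and Dock2 encode proteins that pass receptor signals on inside leukocytes. THEMIS2 is an adaptor of B cells and macrophages, and its gene lies on chr4:132781843-132796387, minus strand. Themis2 had 5.02, 5.14, 5.46, 4.83 and 4.89 FPKM under anti-CXCL10 plus GSK343, 5.05, 5.87, 5.55, 5.15 and 4.03 under anti-CXCL10, 7.47, 10.1, 11.1, 8.28 and 9.24 under control antibody plus GSK343, and 4.15, 4.66, 4.60 and 3.56 under control antibody. Control antibody plus GSK343 stood alone, and the anti-CXCL10 plus GSK343 libraries fell inside the range of anti-CXCL10. The interaction of Themis2 was -0.97 (95% interval -1.28 to -0.65, adjusted p = 0.0252), with changes of -0.01 under anti-CXCL10 and 0.96 under control antibody.

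DOCK2 activates the GTPase Rac in leukocytes and is needed for their movement towards chemokines. Its gene lies on chr11:34226815-34783892, minus strand. Dock2 had 2.46, 2.85, 2.84, 2.35 and 2.29 FPKM under anti-CXCL10 plus GSK343, 2.85, 3.23, 2.80, 2.84 and 2.46 under anti-CXCL10, 3.93, 4.96, 7.06, 4.34 and 4.52 under control antibody plus GSK343, and 1.81, 2.73, 2.47 and 2.105 under control antibody. The lowest control antibody plus GSK343 library was above the highest of the rest, which was an anti-CXCL10 library. Its interaction was -0.96 (95% interval -1.32 to -0.59, adjusted p = 0.0489), with changes of -0.11 under anti-CXCL10 and 0.85 under control antibody. Of the 31 leukocyte signaling adaptors and kinases tested, 23 had a negative interaction at an unadjusted p under 0.05, 2 of them past the adjusted threshold, and the median was -0.78. Vav1, another activator of Rac, had -0.98 (adjusted p = 0.0799) and Laptm5, a lysosomal protein of leukocytes, had -0.98 (adjusted p = 0.0804). The 23 (74.2%) became 14 (45.2%) with the muscle covariate and 16 (51.6%) without the 3 muscle-high libraries. Over all genes the negative shares were 7.83%, 4.51% and 5.15% in the same order.

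Ccl6 and Alox5ap act in the production of signals that leukocytes send. CCL6 is a CC chemokine of mouse myeloid cells, and its gene lies on chr11:83587882-83593087, minus strand. Ccl6 had 52.9, 73.7, 98.2, 60.9 and 56.7 FPKM under anti-CXCL10 plus GSK343, 78.1, 79.6, 71.3, 135 and 51.7 under anti-CXCL10, 206, 243, 309, 283 and 163 under control antibody plus GSK343, and 74.4, 56.2, 99.7 and 67.3 under control antibody. Even the lowest control antibody plus GSK343 library exceeded the highest of the others, anti-CXCL10 replicate 4. The interaction of Ccl6 was the largest of the 9 at -1.92 (95% interval -2.63 to -1.20, adjusted p = 0.0489), with changes of -0.24 under anti-CXCL10 and 1.68 under control antibody.

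Other chemokine genes within 200 kb of Ccl6 had interactions of -1.69 for Ccl9 (adjusted p = 0.115), -1.32 for Ccl5 (adjusted p = 0.186), -1.12 for Ccl4 (adjusted p = 0.211) and -0.85 for Ccl3 (adjusted p = 0.317), none past the threshold. Of 19 CC chemokine genes tested, 13 had a negative interaction at an unadjusted p under 0.05 and 0 a positive one, 1 of them past the adjusted threshold, with a median of -1.11. Ccl8, a chemokine for monocytes and T cells, had 91.7, 104, 116, 105 and 71.7 FPKM under anti-CXCL10 plus GSK343, 117, 99.1, 123, 178 and 105 under anti-CXCL10, 300, 455, 472, 195 and 219 under control antibody plus GSK343, and 71.0, 120, 234 and 76.0 under control antibody. Control antibody replicate 3 was above 2 of the control antibody plus GSK343 libraries, and the interaction of -1.79 had an adjusted p of 0.0953. The 13 became 6 with the muscle covariate and 10 without the 3 muscle-high libraries.

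Alox5ap encodes the protein that hands arachidonic acid to 5-lipoxygenase, the first step towards leukotrienes, and lies on chr5:149265058-149288045, plus strand. Alox5ap had 8.10, 10.54, 9.63, 7.28 and 7.5003 FPKM under anti-CXCL10 plus GSK343, 9.84, 6.96, 8.79, 11.1 and 6.63 under anti-CXCL10, 26.1, 21.6, 24.7, 27.1 and 23.6 under control antibody plus GSK343, and 6.56, 7.96, 14.1 and 7.93 under control antibody. The control antibody plus GSK343 libraries were close to each other and well apart from the highest other library, control antibody replicate 3. Its interaction was -1.38 (95% interval -1.89 to -0.88, adjusted p = 0.0459), with changes of 0.00 under anti-CXCL10 and 1.39 under control antibody. Of the 13 genes of leukotriene and prostaglandin synthesis tested, 5, Alox5ap among them, had a negative and 1 a positive interaction at an unadjusted p under 0.05, with a median of -0.69. The negative count was 3 with the muscle covariate and 2 without the 3 muscle-high libraries, where the median was -0.13.

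Trpv2 encodes a cation channel that macrophages use, among other cells, and lies on chr11:62574486-62600515, plus strand. Trpv2 had 1.85, 3.09, 2.42, 1.91 and 2.15 FPKM under anti-CXCL10 plus GSK343, 2.93, 2.30, 4.56, 4.32 and 2.16 under anti-CXCL10, 5.79, 7.06, 10.4, 6.66 and 7.36 under control antibody plus GSK343, and 2.29, 2.99, 2.88 and 1.42 under control antibody. Anti-CXCL10 replicates 3 and 4 came nearest to the control antibody plus GSK343 libraries. Its interaction was -1.67 (95% interval -2.23 to -1.10, adjusted p = 0.0273), with changes of -0.35 under anti-CXCL10 and 1.32 under control antibody.

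The protein-coding gene AB124611 (chr9:21526176-21545333, plus strand) and the processed transcript AI662270 (chr11:83223576-83226604, plus strand) complete the 9. AB124611 had 2.95, 4.66, 6.51, 3.74 and 3.65 FPKM under anti-CXCL10 plus GSK343, 5.38, 4.34, 4.39, 5.73 and 3.83 under anti-CXCL10, 8.34, 11.1, 16.6, 10.6 and 13.4 under control antibody plus GSK343, and 2.83, 3.72, 5.54 and 1.82 under control antibody. In both drug-treated groups replicate 3 was the highest for this gene. Its interaction was -1.71 (95% interval -2.36 to -1.06, adjusted p = 0.0489), with changes of -0.14 under anti-CXCL10 and 1.57 under control antibody.

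AI662270 had the lowest p of all genes tested. It had 10.47, 10.9, 11.8, 12.04 and 9.34 FPKM under anti-CXCL10 plus GSK343, 10.3, 10.8, 13.3, 13.9 and 8.73 under anti-CXCL10, 25.7, 26.6, 26.7, 24.4 and 25.4 under control antibody plus GSK343, and 11.47, 13.9, 12.1 and 12.3 under control antibody. The 5 control antibody plus GSK343 libraries averaged 25.7 ± 0.939 FPKM (SD, n = 5), against 12.5 ± 1.04 under control antibody (SD, n = 4). Its interaction was -1.04 (95% interval -1.35 to -0.73, adjusted p = 0.0224), with changes of -0.05 under anti-CXCL10 and 0.99 under control antibody. Within 200 kb of it, the Schlafen genes Slfn2 and Slfn4 had interactions of -0.90 (adjusted p = 0.115) and -1.07 (adjusted p = 0.204), and Slfn1, Slfn3 and the pseudogene Slfn10-ps had -0.49, -0.05 and -0.27, none past the threshold.

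The promoters of 6 of the 9 genes were found in RefSeq (GRCm38.p6), as windows of 250 bases before to 50 after a start site. They were searched on both strands for GAGGAAGT, a binding motif of the myeloid factor PU.1, and for the core of the interferon-stimulated response element, 2 copies of GAAA with 2 bases between them. The 6 genes had 8 windows, and a gene counted if any of its windows matched. Trpv2 held the PU.1 motif in overlapping windows, but not in its window at chr11:62575377-62575676. Of the 6 genes, 0 held the response element core. Of 32851 single promoters in the same set, 3.2% held the PU.1 motif and 3.44% the core. A Trpv2 window is shown for its match, which stands in capitals, and the Ccl6 window because its interaction was the largest of the 9.
Trpv2, chr11:62574236-62574535, plus strand: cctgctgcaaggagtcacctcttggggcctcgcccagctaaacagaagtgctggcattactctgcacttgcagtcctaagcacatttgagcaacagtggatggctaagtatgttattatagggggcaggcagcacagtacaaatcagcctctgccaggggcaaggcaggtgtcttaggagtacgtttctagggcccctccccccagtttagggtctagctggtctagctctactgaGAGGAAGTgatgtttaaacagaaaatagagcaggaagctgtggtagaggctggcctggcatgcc
Ccl6, chr11:83593038-83593337, minus strand: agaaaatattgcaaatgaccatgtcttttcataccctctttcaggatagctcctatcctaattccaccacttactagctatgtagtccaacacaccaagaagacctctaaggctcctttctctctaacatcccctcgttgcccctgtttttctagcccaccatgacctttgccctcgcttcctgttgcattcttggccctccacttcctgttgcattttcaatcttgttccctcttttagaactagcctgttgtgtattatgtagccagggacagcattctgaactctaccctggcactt
A match says that these letters are present, not that a factor binds there. The windows of Cd48, Themis2, Ccl6, Dock2 and AB124611 held neither motif.

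The pattern of the 9 genes can be set beside that of all genes. With GSK343 under anti-CXCL10, 0 genes passed an adjusted p of 0.05 (0%) in limma, and 418 had an unadjusted p under 0.05 (2.91%). With GSK343 under control antibody, 627 genes were higher (4.36%) and 160 lower (1.11%) at an adjusted p under 0.05. In all, 6 genes passed under control antibody with the muscle covariate and 15 without the 3 muscle-high libraries. These are separate comparisons with different counts of libraries, and a gene past the threshold in one of them and not in the other is shown to differ only by the interaction itself. Across the 14385 genes the GSK343 change under anti-CXCL10 and that under control antibody had a Pearson correlation of 0.0193, a description across genes that are not independent of each other. Of the 1127 genes with a negative interaction at an unadjusted p under 0.05, 1054 (93.5%) had the larger of their 2 changes under control antibody, and 1060 had their highest group mean under control antibody plus GSK343, against 4337 of all 14385 genes. Of the 735 with a positive interaction, 620 (84.4%) had the larger change under control antibody, and 602 had their lowest group mean under control antibody plus GSK343, against 5573 of all genes. These counts describe genes chosen on the interaction, which favors an extreme mean under control antibody plus GSK343. The choice does not fix which of the 2 changes is the larger. Over all genes tested, the larger change was under control antibody in 66.8%.

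**Figure D2:**
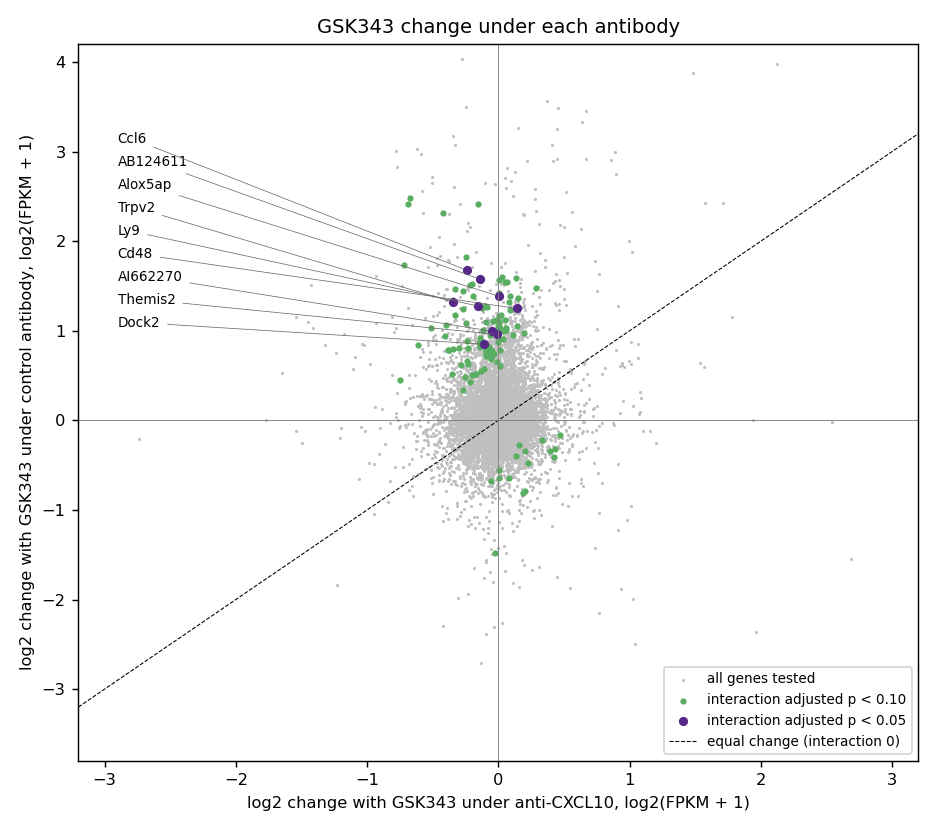
GSK343 change of each gene under anti-CXCL10 (horizontal axis) and under control antibody (vertical axis), both as log2(FPKM + 1) differences, for the 14385 genes tested, with 1 gene outside the axes. The dashed line marks equal change; the 9 genes past adjusted p 0.05 (purple) lie above it, between -0.35 and 0.14 on the horizontal axis, and the other genes past 0.10 (green) lie above it where the interaction is negative, some of them further left, such as Hspb1 at -0.72.

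At an adjusted p under 0.10, a threshold added after the values were seen, the interaction was negative for 99 genes (0.688%) and positive for 16 (0.111%). All 99 had their highest group mean under control antibody plus GSK343, against 4337 of all 14385 genes. In 68 of them every control antibody plus GSK343 library was above the 14 others, against 253 of all genes (1.76%). The 99 were chosen on the interaction, which favors that order without fixing it. The median change of the 99 was -0.10 under anti-CXCL10 and 1.004 under control antibody. Abcg1, which exports cholesterol from macrophages, had 3.84, 4.64, 4.84, 5.56 and 5.29 FPKM under anti-CXCL10 plus GSK343, 5.65, 5.14, 5.95, 5.79 and 4.71 under anti-CXCL10, 7.49, 10.6, 10.6, 6.30 and 8.997 under control antibody plus GSK343, and 3.98, 4.69, 5.17 and 3.58 under control antibody. The control antibody plus GSK343 libraries were again the highest 5, replicate 4 by a small margin, and the interaction was -1.01 (adjusted p = 0.0628). Lat2, an adaptor of B cells, mast cells and myeloid cells, had -1.01 (adjusted p = 0.0651), and Ctsb, which encodes the lysosomal protease cathepsin B and overlaps Fdft1, had -0.74 (adjusted p = 0.0696). Serpina3f, one of the mouse Serpina3 protease inhibitors, had -1.71 (adjusted p = 0.0712). Its FPKM was between 4.14 and 5.73 under anti-CXCL10 plus GSK343, 3.98 and 8.01 under anti-CXCL10, 6.66 and 17.9 under control antibody plus GSK343, and 2.59 and 6.31 under control antibody. Its control antibody plus GSK343 replicate 1, at 6.66, fell within the range of the anti-CXCL10 libraries.

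Markers of immune cells other than these 9 were described by lists, chosen with earlier results of these data known. Of 26 macrophage and monocyte markers tested, 21 had a negative interaction at an unadjusted p under 0.05 and 0 a positive one, with 0 past the adjusted threshold. Their median change was 0.07 under anti-CXCL10 and 0.87 under control antibody, and the median interaction was -0.88. Aif1, a macrophage calcium-binding protein, had 44.2, 41.1, 36.2, 43.3 and 31.5 FPKM under anti-CXCL10 plus GSK343, 31.3, 29.7, 45.8, 41.3 and 31.2 under anti-CXCL10, 79.2, 82.1, 76.6, 76.2 and 80.6 under control antibody plus GSK343, and 39.4, 49.9, 37.7 and 26.4 under control antibody. No other library came near the 5 of control antibody plus GSK343, and the interaction was -0.92 (adjusted p = 0.0885). Ms4a6d, a membrane protein of macrophages, had -1.15 (adjusted p = 0.0885), and the scavenger receptor gene Msr1 had -0.95 (adjusted p = 0.0937). The mean of the macrophage list was between 4.43 and 4.78 under anti-CXCL10 plus GSK343, 4.30 and 4.69 under anti-CXCL10, 4.96 and 5.44 under control antibody plus GSK343, and 3.95 and 4.74 under control antibody, so the control antibody plus GSK343 libraries did not overlap any other. The plain sum of their FPKM, which the most abundant markers set, did overlap, at 3910 to 5760 under anti-CXCL10 plus GSK343, 3560 to 5910 under anti-CXCL10, 4100 to 6470 under control antibody plus GSK343 and 2570 to 5340 under control antibody. The count of 21 became 15 both with the muscle covariate and without the 3 muscle-high libraries.

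Receptors by which myeloid cells sense antibodies and sugars had similar values, with 16 of 22 Fc and lectin receptor genes negative at an unadjusted p under 0.05 and a median interaction of -0.93. Clec4a1 had -1.35 (adjusted p = 0.0799), Pirb, an inhibitory receptor, had -1.16 (adjusted p = 0.084), and Clec4a3 had -1.25 (adjusted p = 0.0848). In the MHC class II list, which covers the presentation of antigen to CD4 T cells, 10 of 13 genes were negative at that level, with a median of -0.69, and Ctss, the protease cathepsin S that prepares class II molecules, had -1.47 (adjusted p = 0.0885). That count was 3 both with the muscle covariate and without the 3 muscle-high libraries. Of 11 neutrophil markers 2 were negative and 0 positive, and of 9 mast cell and eosinophil markers 0 were negative or positive at an unadjusted p under 0.05. Without control antibody plus GSK343 replicate 1 the negative counts were 4 and 4, and with the muscle covariate they were 1 and 0. Over all genes the negative shares in these 2 fits were 10.3% and 4.51%.

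T cell markers had a median interaction of -0.78, with changes of 0.13 under anti-CXCL10 and 0.92 under control antibody. Of 22 tested, 16 were negative at an unadjusted p under 0.05 and 0 positive, with 0 past the adjusted threshold. Cd3e, a chain of the T cell receptor complex, had 7.01, 8.74, 7.36, 9.77 and 7.54 FPKM under anti-CXCL10 plus GSK343, 7.86, 5.67, 10.6, 6.48 and 6.24 under anti-CXCL10, 9.45, 15.1, 24.05, 12.4 and 19.3 under control antibody plus GSK343, and 4.33, 6.97, 6.48 and 7.10 under control antibody. Replicate 1 of control antibody plus GSK343 lay within the range of the 2 anti-CXCL10 groups and its other 4 libraries above it, and the interaction was -1.05 (adjusted p = 0.141). The same replicate stood apart in the T cell list as a whole, at 2.46 against at most 2.52 in the other groups, while the other 4 libraries of its group were above all 14. Without that replicate the count was 19 of 22 with a median of -0.97, and with the muscle covariate or without the 3 muscle-high libraries it was 9 of 22.

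Genes by which T cells and natural killer cells kill were mostly negative too, in 11 of 15 at an unadjusted p under 0.05, with a median of -1.07 and 0 past the adjusted threshold. Prf1, which encodes the pore-forming protein perforin, had 4.62, 6.69, 4.49, 6.14 and 3.33 FPKM under anti-CXCL10 plus GSK343, 6.56, 2.65, 6.398, 5.48 and 3.77 under anti-CXCL10, 4.75, 12.3, 20.2, 4.42 and 14.1 under control antibody plus GSK343, and 2.12, 2.07, 4.86 and 2.44 under control antibody. Replicates 1 and 4 of control antibody plus GSK343 lay among the other groups and its other 3 libraries above them. The interaction of Prf1 was -1.46 (adjusted p = 0.204), and that of Gzmb, which encodes the protease granzyme B, was -1.07 (adjusted p = 0.282). The count of 11 became 4 with the muscle covariate and 5 without the 3 muscle-high libraries. Among natural killer receptors, the genes Klrd1 and Klre1 had -1.72 (adjusted p = 0.0848) and -1.30 (adjusted p = 0.084). Of 10 such genes tested, 5 were negative at an unadjusted p under 0.05, 3 with the muscle covariate and 2 without the 3 muscle-high libraries, where the median was -0.40 in place of -0.84.

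B and plasma cell markers had the most negative median of the immune lists with 5 or more genes tested, at -1.99, with a spread to match: 4 of 10 were negative at an unadjusted p under 0.05. Igj, which encodes the chain that joins polymeric antibodies, had 1.498, 5.07, 1.29, 1.34 and 0.0839 FPKM under anti-CXCL10 plus GSK343, 0.433, 0.166, 0.488, 2.46 and 0 under anti-CXCL10, 21.8, 69.1, 59.3, 39.6 and 32.3 under control antibody plus GSK343, and 0.763, 0.154, 9.32 and 9.24 under control antibody. The control antibody plus GSK343 libraries were the highest 5, and 2 of the 4 control antibody libraries lay far above the other 2. The interaction was -2.78 (adjusted p = 0.182). The list's median was -0.87 with the muscle covariate and -0.65 without the 3 muscle-high libraries, with 2 of 10 negative in each, and it was then no longer the most negative.

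The antibody's own target was measured here as RNA, not as protein. Cxcl10 had 114, 111, 110, 131 and 82.2 FPKM under anti-CXCL10 plus GSK343, 155, 66.5, 126, 153 and 77.9 under anti-CXCL10, 126, 283, 263, 165 and 188 under control antibody plus GSK343, and 73.1, 112, 123 and 79.2 under control antibody. Replicate 1 of control antibody plus GSK343 lay within the range of the other groups, and its other 4 libraries were the highest of all. The interaction was -1.06 (95% interval -1.84 to -0.28, adjusted p = 0.222), with changes of -0.01 under anti-CXCL10 and 1.05 under control antibody, and the gene overlaps Art3. Cxcl9, another ligand of CXCR3, had -1.22 (adjusted p = 0.258), Cxcl11, also a CXCR3 ligand, had -1.14 (adjusted p = 0.448), and the receptor gene Cxcr3 had -0.73 (adjusted p = 0.356). None of the 4 passed the threshold.

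Ifng, which encodes interferon-gamma, had 2.99, 4.90, 4.53, 3.46 and 2.14 FPKM under anti-CXCL10 plus GSK343, 5.05, 2.61, 4.14, 3.69 and 2.65 under anti-CXCL10, 5.36, 11.46, 22.7, 5.70 and 8.01 under control antibody plus GSK343, and 2.25, 2.23, 3.62 and 2.34 under control antibody. All 5 control antibody plus GSK343 libraries were above the others, 2 of them by little, and the interaction was -1.54 (adjusted p = 0.131). Of 34 interferon-gamma response genes tested, 27 were negative at an unadjusted p under 0.05 and 0 positive, with 0 past the adjusted threshold, a median interaction of -1.06, and median changes of -0.06 under anti-CXCL10 and 0.98 under control antibody. The list's mean was 5.09 in control antibody plus GSK343 replicate 1, within the range of the other groups, which reached 5.41. Gbp7, a guanylate-binding protein induced by interferon, had -1.06 (adjusted p = 0.0848). Of 35 type I interferon response genes, 24 were negative and 0 positive, with a median of -0.72, and Ifit1, an antiviral RNA-binding protein, had -1.12 (adjusted p = 0.0848). With the muscle covariate the counts were 18 of 34 and 12 of 35, and without the 3 muscle-high libraries they were 25 and 19.

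**Figure D3:**
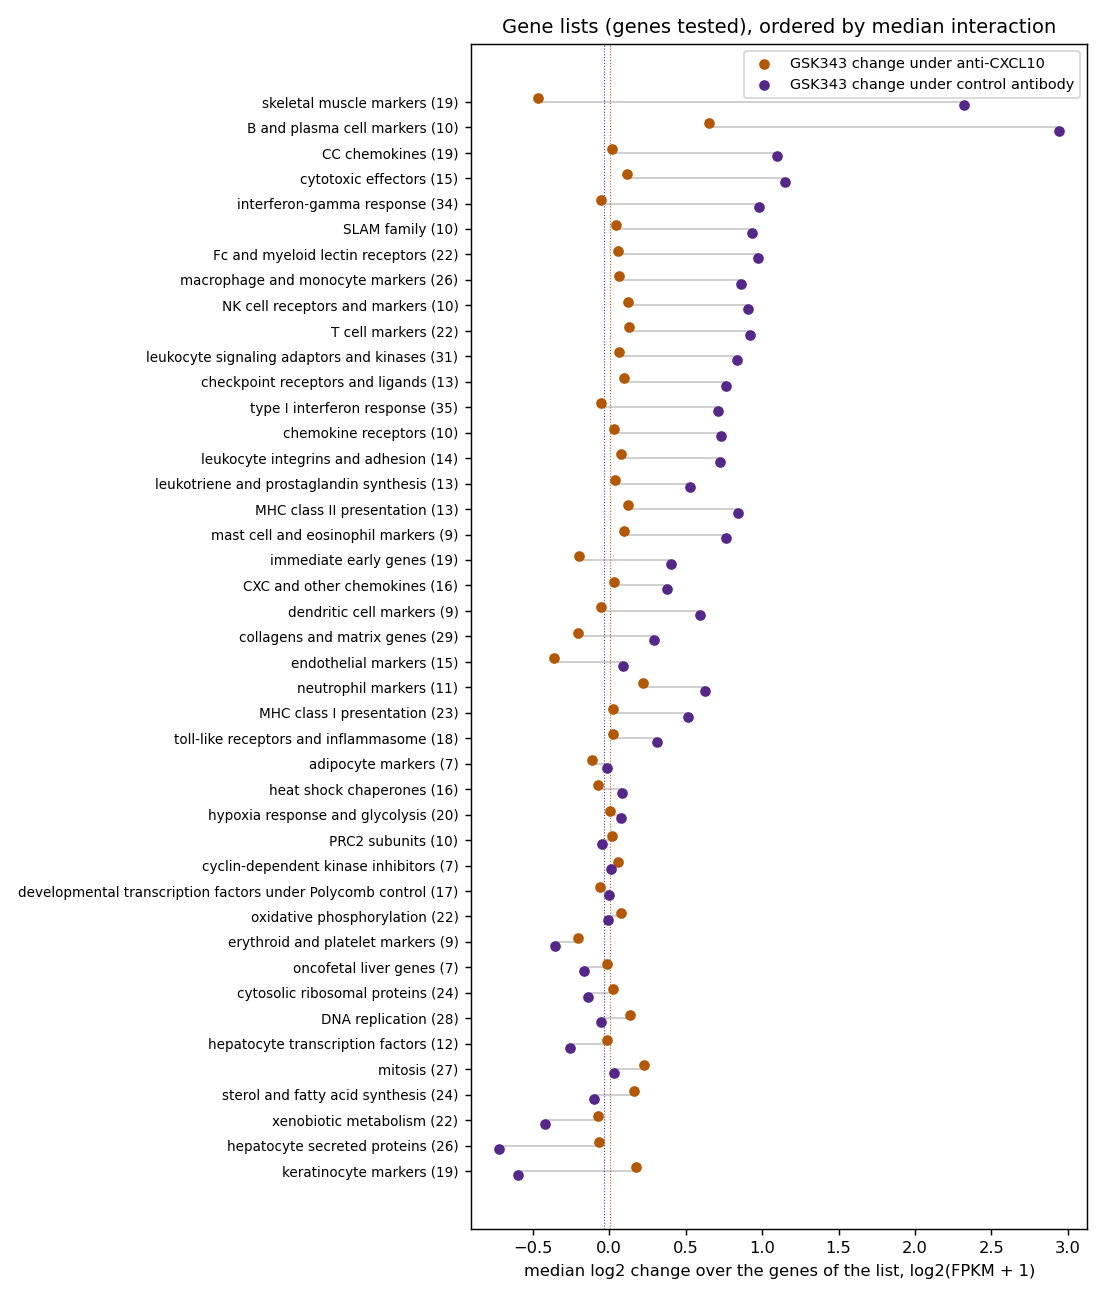
Median GSK343 change, in log2(FPKM + 1), of each gene list under anti-CXCL10 (orange) and under control antibody (purple), with the lists ordered by their median interaction; dotted lines mark the medians of all genes tested, 0.01 and -0.03. For the leukocyte and interferon lists the orange points lie near 0 and the purple points to the right, as for the macrophage markers at 0.07 and 0.87.

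The direct target of the drug was measured as RNA as well, which does not report the activity of the enzyme. Ezh2 had 27.8, 29.4, 30.2, 24.7 and 23.3 FPKM under anti-CXCL10 plus GSK343, 25.3, 26.3, 26.5, 22.3 and 24.5 under anti-CXCL10, 28.8, 26.7, 21.7, 27.1 and 22.2 under control antibody plus GSK343, and 31.8, 31.9, 25.0 and 29.9 under control antibody. The 4 groups overlapped, and the interaction was 0.33 (adjusted p = 0.32). Of 10 genes of PRC2 subunits, 0 were negative and 1 positive at an unadjusted p under 0.05, with a median of -0.03. Of 17 developmental transcription factors known to be under Polycomb control, 5 were negative (29.4%) and 2 positive (11.8%). Over all genes the shares were 7.83% and 5.11%. The list's median of 0.04 was the same as over all genes. Its counts were 2 and 0 with the muscle covariate, and 2 and 1 without the 3 muscle-high libraries.

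In the positive direction no gene passed an adjusted p of 0.05, and the smallest was 0.0651, for Cldn2. Cldn2, which encodes a claudin that lets cations pass between epithelial cells, had 28.4, 23.3, 25.96, 23.1 and 26.1 FPKM under anti-CXCL10 plus GSK343, 20.2, 26.9, 23.1, 19.5 and 18.5 under anti-CXCL10, 16.5, 14.2, 13.7, 16.4 and 15.2 under control antibody plus GSK343, and 22.6, 20.998, 21.5 and 20.8 under control antibody. Its control antibody plus GSK343 libraries were the lowest 5 of the 19, with an interaction of 0.70. Fgfr4, the hepatocyte receptor for the bile acid signal FGF15, had 0.72 (adjusted p = 0.0848), and Amacr, an enzyme of branched fatty acid and bile acid metabolism, had 0.62 (adjusted p = 0.0885), and both were also lowest in those 5 libraries. Serpind1, which encodes the liver's heparin cofactor II, had 32.6, 29.5, 38.3, 34.8 and 60.0 FPKM under anti-CXCL10 plus GSK343, 30.5, 37.9, 32.0, 31.3 and 72.9 under anti-CXCL10, 17.8, 17.1, 11.46, 10.4 and 14.6 under control antibody plus GSK343, and 60.0, 42.1, 34.4 and 32.2 under control antibody. It too was lowest in the 5 control antibody plus GSK343 libraries, with an interaction of 1.46 (95% interval 0.71 to 2.20, adjusted p = 0.0937), and it overlaps Pi4ka. In all of these 4 genes every control antibody plus GSK343 library was below the 14 others, as in 128 of all genes tested (0.89%). The 4 were grouped here for that order, out of the 10 named positive genes, so the share over all genes is no test of it.

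A different order was seen in 3 further genes of this group. Get4, of the machinery that inserts proteins into membranes by their tails, had 56.9, 63.7, 60.0, 58.1 and 55.3 FPKM under anti-CXCL10 plus GSK343, 46.8, 41.6, 49.0, 49.4 and 45.9 under anti-CXCL10, 43.4, 50.9, 46.7, 41.2 and 57.2 under control antibody plus GSK343, and 54.7, 50.9, 62.7 and 55.3 under control antibody. Here the 2 anti-CXCL10 groups did not overlap, and the larger change, 0.33, was under anti-CXCL10. Osgepl1, a mitochondrial tRNA-modifying enzyme whose gene overlaps Gm28551, had changes of 0.47 under anti-CXCL10 and -0.16 under control antibody (interaction adjusted p = 0.088), and the zinc finger gene Zfp90 had 0.43 and -0.32 (adjusted p = 0.0937). In each of the 3 genes all anti-CXCL10 plus GSK343 libraries were above all anti-CXCL10 libraries, as in 39 of the genes tested (0.271%). These 3 too were grouped for their order, out of the 10 named positive genes, so that share is no test. Tmem183a, Rassf8 and Cdr2l, also among the 10, had neither order.

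**Figure D4:**
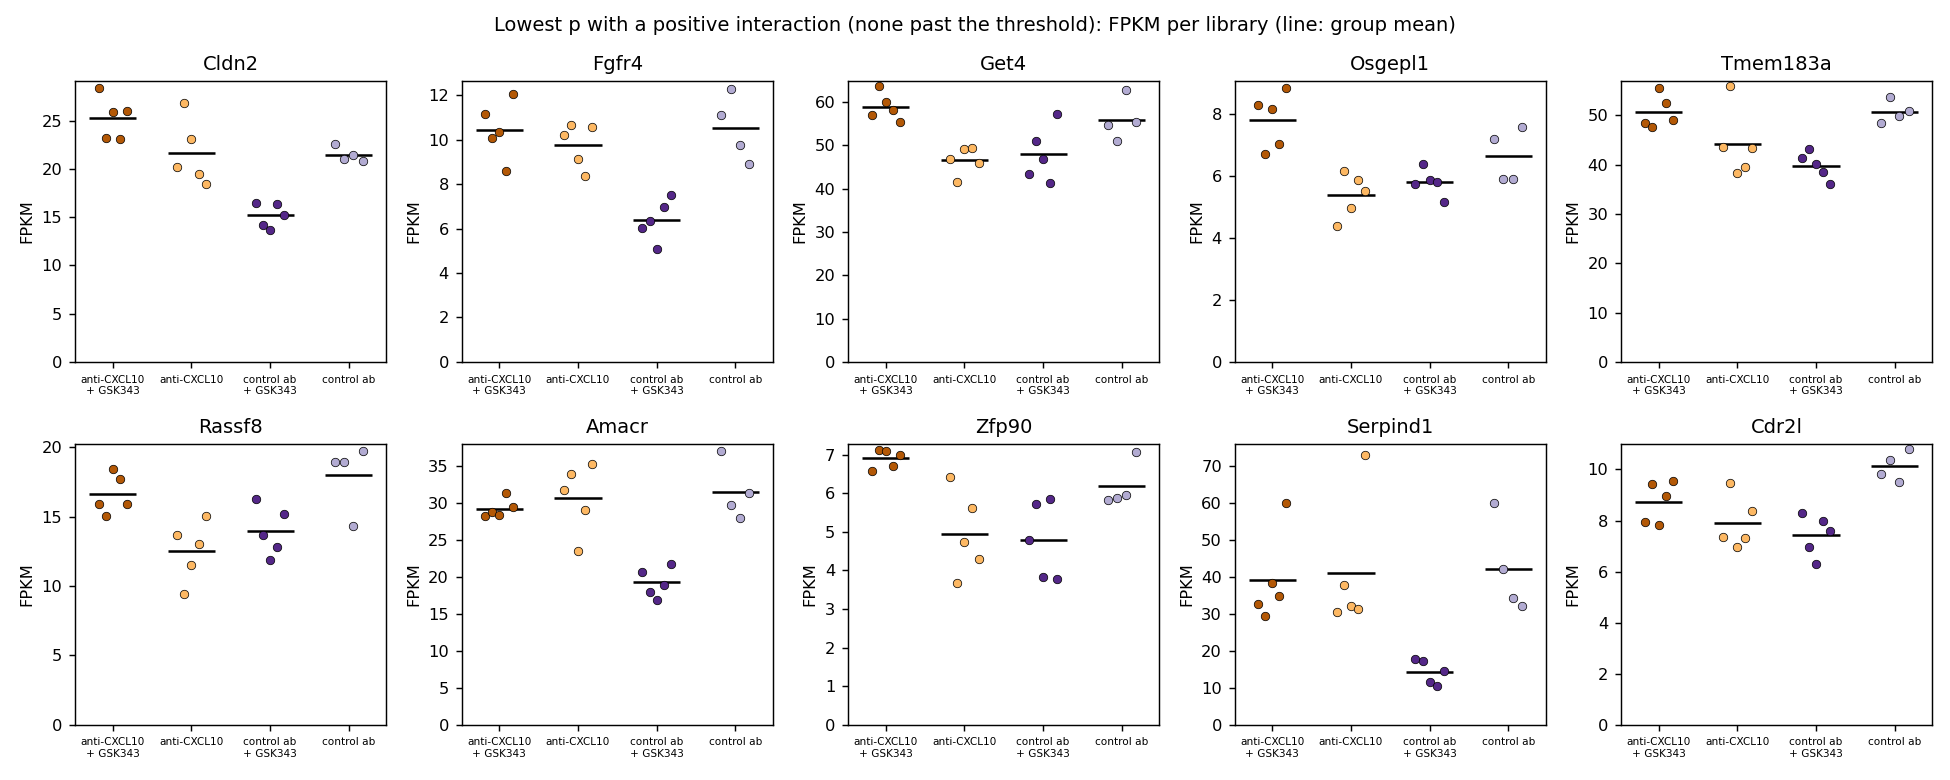
FPKM of the 10 named genes of lowest p with a positive interaction (vertical axes, linear, from 0) in each library, groups in the same order from left to right as in the plot of the 9 genes; points are libraries and lines are group means. Cldn2, Fgfr4, Amacr and Serpind1 are lowest in the 5 control antibody plus GSK343 libraries, while Get4, Osgepl1 and Zfp90 are higher in all anti-CXCL10 plus GSK343 than in all anti-CXCL10 libraries.

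Genes of hepatocyte function had positive medians. Of 26 genes of proteins that hepatocytes secrete, 9 were positive at an unadjusted p under 0.05 (5.11% over all genes) and 1 negative, with 0 past the adjusted threshold and a median of 0.62, made of -0.06 under anti-CXCL10 and -0.72 under control antibody. The list's mean was between 4.76 and 5.85 under anti-CXCL10 plus GSK343, 4.73 and 6.06 under anti-CXCL10, 4.10 and 4.87 under control antibody plus GSK343, and 4.51 and 6.00 under control antibody. Replicate 1 of control antibody plus GSK343 had the 4.87 and overlapped the other groups. Its negative member was F10, which encodes coagulation factor X and had -1.71 (adjusted p = 0.131). Of 22 genes of xenobiotic metabolism, 8 were positive and 0 negative, with a median of 0.49, and Abcc2, the canalicular exporter of conjugates, had 0.62 (adjusted p = 0.307). The positive counts of the secreted protein and xenobiotic lists were 1 and 0 with the muscle covariate, and 1 each without the 3 muscle-high libraries. Of 24 genes of sterol and fatty acid synthesis, 8 were positive and 0 negative, with a median of 0.25, and there the counts were 5 with the muscle covariate and 11 without the 3 libraries. Srebf2, the master regulator of cholesterol synthesis, had 0.44 (adjusted p = 0.187).

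Lists outside the immune and hepatocyte groups were described in the same way. Of 19 immediate early genes, transcription factors and regulators that cells induce rapidly on stimulation, 11 were negative at an unadjusted p under 0.05 and 0 positive, with a median of -0.60, made of -0.20 under anti-CXCL10 and 0.41 under control antibody. Atf3, a stress-induced transcription factor, had 18.6, 17.3, 16.0, 19.2 and 13.7 FPKM under anti-CXCL10 plus GSK343, 18.5, 21.4, 41.6, 24.8 and 30.4 under anti-CXCL10, 48.6, 53.4, 68.0, 38.7 and 35.1 under control antibody plus GSK343, and 18.5, 47.0, 25.6 and 20.6 under control antibody. Its anti-CXCL10 plus GSK343 libraries were at the low end and its control antibody plus GSK343 libraries at the high end, with anti-CXCL10 replicate 3 and control antibody replicate 2 among them, and the interaction was -1.45 (adjusted p = 0.0915). The count of 11 became 9 both with the muscle covariate and without the 3 muscle-high libraries. Of 16 heat shock chaperones 6 were negative, with a median of -0.14, and 4 were both with the muscle covariate and without the 3 muscle-high libraries. Hspb1 had -2.45 (adjusted p = 0.0848), and the near-identical copies Hspa1a and Hspa1b, between which fragments cannot be told apart with certainty, had -3.10 and -3.15 (adjusted p = 0.0937 and 0.098).

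Endothelial markers were negative at an unadjusted p under 0.05 in 7 of 15, with a median of -0.43, and there the change under anti-CXCL10 was the larger, at -0.36 against 0.09 under control antibody. The count was 1 with a median of -0.05 with the muscle covariate, and 3 with -0.17 without the 3 muscle-high libraries. Flt1, a receptor for vascular endothelial growth factor, had -1.30 (adjusted p = 0.152). Collagens and matrix genes were negative in 10 of 29, with a median of -0.50, and this count was 1 with the muscle covariate and 0 without the 3 muscle-high libraries. Of 19 skeletal muscle markers, 14 were negative, with a median of -2.71 made of -0.47 under anti-CXCL10 and 2.32 under control antibody, and 0 were negative without the 3 muscle-high libraries. The muscle list shared with the leukocyte lists its highest group, control antibody plus GSK343, with mean scores of 1.96 under anti-CXCL10 plus GSK343, 2.40 under anti-CXCL10, 4.08 under control antibody plus GSK343 and 1.97 under control antibody. Mitotic genes had a median of 0.22, with 3 of 27 positive, and a median change of 0.23 under anti-CXCL10 against 0.03 under control antibody. That count was 8 without the 3 muscle-high libraries and 1 without control antibody plus GSK343 replicate 1. Of 24 cytosolic ribosomal protein genes, 0 were negative or positive at an unadjusted p under 0.05, with a median of 0.14. Keratinocyte markers, which the skin over a tumor could bring in, had a median of 0.96, with 0 of 19 negative and 1 positive. Their summed FPKM was between 446 and 580 under anti-CXCL10 plus GSK343, 401 and 688 under anti-CXCL10, 388 and 1000 under control antibody plus GSK343, and 415 and 1300 under control antibody, and Dsg1a, Dsg3 and Trp63 were not in the table. The part of skin in the hepatocyte and leukocyte lists was not tested.

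**Figure D5:**
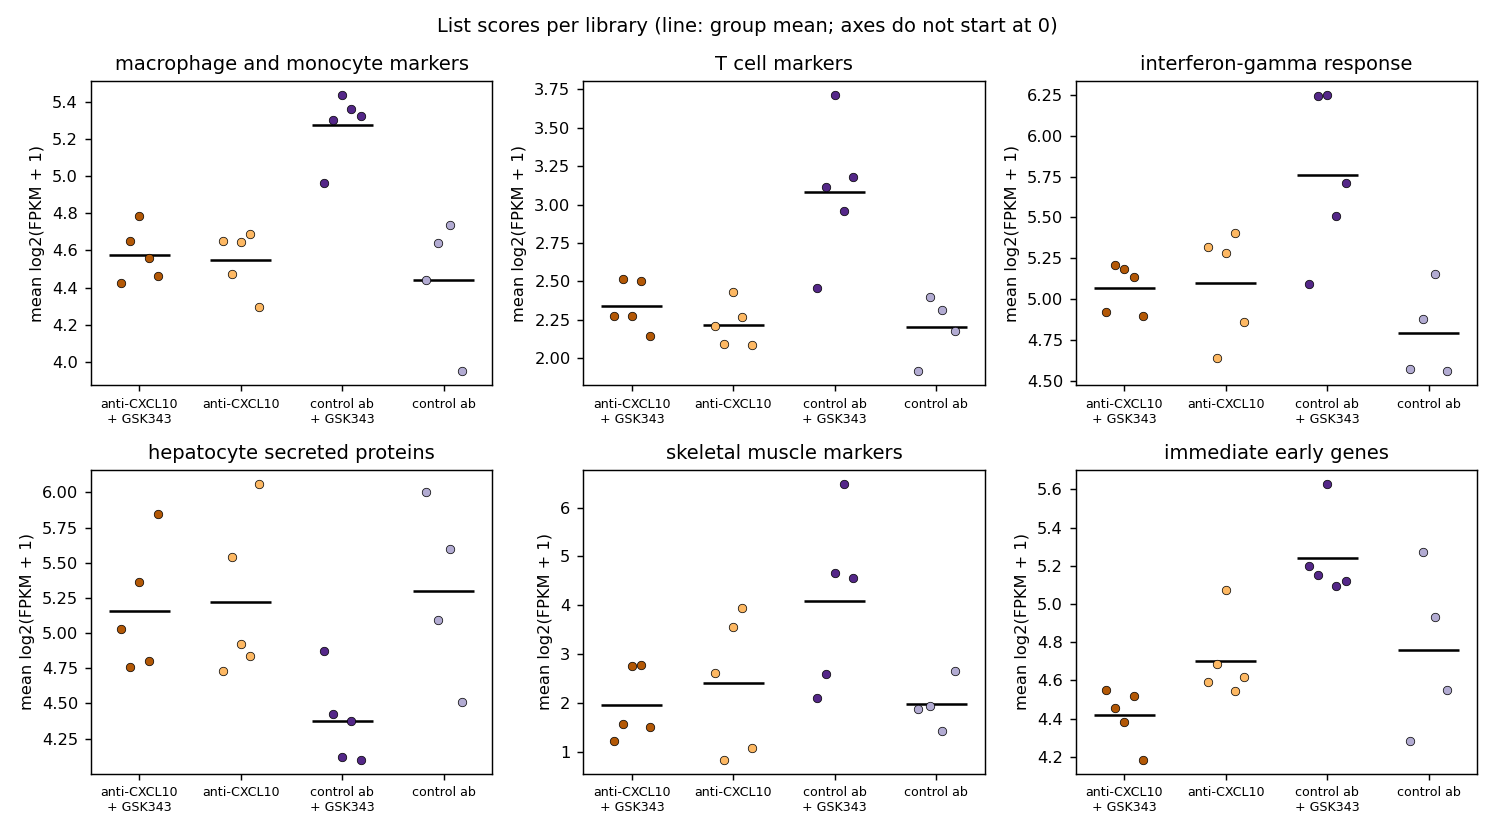
Mean log2(FPKM + 1) of 6 gene lists in each library (vertical axes, which do not start at 0), with anti-CXCL10 plus GSK343, anti-CXCL10, control antibody plus GSK343 and control antibody from left to right and lines at the group means. The macrophage list is above all others in the 5 control antibody plus GSK343 libraries, the T cell and interferon-gamma lists in 4 of them, and the muscle list in 3 of them.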

How the data were processed

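Poly-A RNA of the tumors was sequenced, per the labels' protocols, and the submitters' processing notes name, without their roles, the trimmer Trimmomatic 0.33, the aligners HISAT2 2.1.0 and TopHat2 2.1.0, and StringTie 1.3.3b and HTSeq 0.6.0, with GRCm38 and mm10. The deposited values were read as FPKM from their form, so depth is unknown and no counting interval can be given. The design text speaks of 3 replicates a group and the labels give 5. Rows of the same gene ID were summed (14646 rows, 14633 genes), and 248 genes that reached 1 FPKM in fewer than 5 libraries were left out. Log2(FPKM + 1) values were fitted in limma 3.58.1 (R 4.3.3, statmod 1.5.0) with 4 group means, an intensity trend and robust moderation. The fit was tried on simulated data in which each gene had independent noise. Such data hold no variation that genes share within a library, such as muscle content, so they cannot show how the fit handles it. A fold change on this scale understates the change of low genes. Named were genes past adjusted p 0.05, the 10 of lowest p in each direction with at least 5 FPKM in their highest group, key genes of the question and up to 4 members a list by lowest p. Members and the 44 lists were chosen with earlier results of these data known. The main fit did not pair samples by replicate number. Same-numbered samples of different groups had a median correlation of deviations of 0.0598, with 12 of 27 pairs over 0.1. Pairs of different numbers had a median of -0.0219, with 15 of 108 over 0.1. The numbers used are those of the sample titles. In control antibody plus GSK343 they differ from the numbers after the group letter in the sample descriptions. In the other libraries with values the 2 kinds of number are the same. Whether either kind marks a shared batch or other pairing was not tested.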

Additional observations from a re-analysis of the deposited data

Results flagged for a closer look

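The interaction term itself showed a difference in the GSK343 change between the antibodies for 9 genes: -1.43 for Ly9, -1.10 for Cd48, -1.67 for Trpv2, -1.92 for Ccl6, -0.96 for Dock2, -0.97 for Themis2, -1.71 for AB124611, -1.38 for Alox5ap and -1.04 for AI662270, on the log2(FPKM + 1) scale.

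Single libraries stood apart from the rest of their group, by Dixon's criterion, in 9 of 128 groups of 32 named genes, where chance gives about 1 in 20. Under anti-CXCL10 plus GSK343, Cd48 was low in replicate 5 at 8.53 FPKM, Gzmb was low in replicate 5 at 6.52 and Cxcl11 was high in replicate 2 at 2.15. Serpind1 was high in anti-CXCL10 replicate 5 at 72.9 FPKM. Under control antibody, Rassf8 was low in replicate 3 at 14.3 FPKM, Ifng and Gzmb were high in replicate 3 at 3.62 and 16.0, Zfp90 was high in replicate 5 at 7.09, and Hdac10, a histone deacetylase, was high in replicate 2 at 6.89.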

How the results depend on the processing

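The interaction passed the adjusted threshold in 9 genes, and in 8 and 9 with a pseudocount of 0.1 and 5 (8 of the first 9 each time), 6 without a filter, 7 with at least 5 FPKM in 5 libraries (664 negative at an unadjusted p under 0.05), 7 with plain moderation, and 10 with median-ratio scaling and with quantile normalization. Library quality weights gave 399 (340 negative, 59 positive), 1111 positive at an unadjusted p under 0.05 and 1484 genes under control antibody. The muscle covariate gave 0, with 649 negative and 434 positive at an unadjusted p and 6 genes under control antibody. Without the 3 muscle-high libraries there was 1, with 741 negative at an unadjusted p and 15 genes under control antibody. An adjusted p of 0.10, added after the data were seen, gave 115 (99 negative, 16 positive). The replicate number as a block gave 57, all negative, with all 9 genes among them; 8 of 19 libraries correlated best with their own number. Leaving out 1 library gave 0 to 476 genes (0 to 413 negative, 0 to 63 positive), 917 to 1487 negative and 539 to 953 positive at an unadjusted p, 0 to 1 under anti-CXCL10 and 299 to 1389 under control antibody. Counts more than 1.5 times from 9 came without anti-CXCL10 plus GSK343 replicates 1 (0), 2 (5), 4 (3) and 5 (0), anti-CXCL10 replicates 1 (5), 3 (0), 4 (1) and 5 (57), control antibody plus GSK343 replicates 1 (476), 2 (0), 3 (5) and 4 (5), and control antibody replicates 1 (1), 2 (4), 3 (47) and 5 (0). Without control antibody plus GSK343 replicate 5 it was 6. Itga2b, at -0.11, was 0.12 with the muscle covariate and between -0.26 and 0.016 with 1 library left out, positive without control antibody replicate 1; the cause was not tested. FPKM give no depth, and no count model was fitted.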
